A study of Homo sapiens with 4 samples.

Results

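The genes described here are the receptor tyrosine kinase RET, the partner genes CCDC6 and NCOA4 with which RET is rearranged in papillary thyroid cancer, the RET ligand GDNF, and the docking proteins SHC1, GRB2, FRS2, DOK1 and PTPN11 that read the active receptor. They were chosen by symbol for their place in RET signalling, and all 9 were found among the 13165 genes of the deposited table. The cells were TPC1, a human line established from papillary thyroid cancer and known to carry a CCDC6-RET fusion. RNA was sequenced from TPC1 cells stably carrying the empty vector (TPC1-Vector, below vector cells) and from TPC1 cells stably carrying the vector with INAVA, which the sample labels call by its older symbol C1orf106 (TPC1-INAVA, below INAVA cells). Both groups went through puromycin selection at 0.5 μg/mL for 2 weeks, and each had 2 libraries. Each group is its own selected stable line, so a difference between the lines and an effect of INAVA cannot be told apart, and nothing says that the libraries of a group came from separate cultures. The authors deposited 1 FPKM value per gene and group (a count of fragments scaled to transcript length and to the fragments mapped in all). Since both libraries of a group are in that value, there was no SD and no replicate check for any value below, and the depth is unknown. For the same reason no test could be run here, and a gene was counted as past a threshold when its values, with 0.5 FPKM added to each, differed by at least 1.5-fold.

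RET normally sits at the cell surface and is activated when a ligand of the GDNF family, held by a co-receptor of the GFRα family, brings receptor molecules together. Its phosphorylated tyrosines then recruit docking proteins that feed the RAS-ERK and PI3K-AKT cascades. In papillary thyroid cancer a rearrangement of chromosome 10 can place the kinase part of RET behind the promoter and the coiled-coil part of CCDC6 or NCOA4, so that the kinase is made in follicular cells and is active without ligand. Among normal thyroid cells RET is a gene of the calcitonin-producing C cells rather than of follicular cells.

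RET (chr10:43077069-43130349, forward strand, hg38) and CCDC6 (chr10:59788748-59906656, reverse strand) start 16.7 Mb apart in the table, and NCOA4 (chr10:46005088-46030714, reverse strand) lies between them. In the usual form of the CCDC6-RET fusion, exon 1 of CCDC6 is joined to exon 12 of RET. The annotated bases on either side of that junction are shown because they mark which part of each gene the fusion message holds. They were read from GENCODE release 29 on GRCh38, the CCDC6 bases at chr10:59906122-59906151 on the reverse strand and the RET bases at chr10:43116584-43116613 on the forward strand. Capitals mark the codon that touches the junction, which is codon 101 of CCDC6 and codon 713 of RET.
CCDC6, last 30 bases of exon 1: cgcgacctgcgcaaagccagcgtgaccATC
RET, first 30 bases of exon 12: GAGgatccaaagtgggaattccctcggaag
Exon 1 ends and exon 12 begins between codons, with 0 bases left over on each side. Exon 12 and the exons after it hold 3291 of the 5659 bases of the annotated RET transcript (58.2%) and 1206 of its 3342 coding bases (36.1%). Exon 1 of CCDC6 holds 535 of 5811 transcript bases (9.21%) and 303 of 1422 coding bases (21.3%). A gene-level FPKM divides by the whole transcript, so the deposited values do not say which exons of RET or CCDC6 the fragments came from, and the fusion itself was not measured here.

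The promoter of CCDC6 is the one that drives the fusion, and the promoter of RET is the one it replaces. Both windows are shown from 250 bases before to 50 bases after a start of the gene in RefSeq on GRCh38.p14. They are CCDC6 at chr10:59906507-59906806 (reverse strand) and RET at chr10:43076819-43077118 (forward strand). The RefSeq start of CCDC6 lies inside exon 1 as GENCODE has it (chr10:59906122-59906656). The CCDC6 window thus takes in more of that exon than its last 50 bases. RET has 2 starts in that table, and the first was taken. Capitals mark the GC box, GGGCGG or its reverse complement CCGCCC, counted on both strands, with adjoining or overlapping boxes written as 1 run. Boxes that share a base, as some in the RET window do, were each counted.
CCDC6 promoter: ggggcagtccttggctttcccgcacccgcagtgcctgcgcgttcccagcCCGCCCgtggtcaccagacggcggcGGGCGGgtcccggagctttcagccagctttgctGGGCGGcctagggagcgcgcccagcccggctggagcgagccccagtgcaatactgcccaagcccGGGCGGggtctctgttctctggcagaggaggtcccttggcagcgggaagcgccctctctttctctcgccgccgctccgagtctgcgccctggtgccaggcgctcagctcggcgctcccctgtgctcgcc
RET promoter: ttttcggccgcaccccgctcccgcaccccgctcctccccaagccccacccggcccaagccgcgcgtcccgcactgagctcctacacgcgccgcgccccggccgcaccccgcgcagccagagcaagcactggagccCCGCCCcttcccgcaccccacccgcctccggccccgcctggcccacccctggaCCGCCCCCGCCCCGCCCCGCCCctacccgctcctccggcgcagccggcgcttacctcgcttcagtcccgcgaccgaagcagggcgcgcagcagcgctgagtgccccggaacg
The CCDC6 window holds 4 GC boxes and the RET window 5, and 45.0% of the 35116 promoter windows of the table hold at least 1. The letters CCAAT or their reverse complement ATTGG occur 0 times in both windows, against 34.6% of all windows that hold them. Of the bases, 72.3% are G or C in the CCDC6 window and 78.7% in the RET window. A motif match is a description of the letters and no evidence of binding.

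RET was at 8.77 FPKM in vector cells and 10.2 FPKM in INAVA cells. The level was thus in the middle of the table in both groups, with 46.5% of the listed genes lower in vector cells and 50.5% lower in INAVA cells. The log2 fold change of RET, computed here and below as the difference of log2(FPKM + 0.5), was 0.20, and 29.4% of the 12305 genes kept (those whose 2 group values averaged 0.5 FPKM or more) had a larger one in either direction. In bulk RNA, fewer cells with a transcript and less of it per cell cannot be told apart. The log2 scale with 0.5 added understates the change of weakly expressed genes.

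CCDC6, whose promoter drives the fusion, was at 0.532 FPKM in vector cells and 0.647 FPKM in INAVA cells. Of the listed genes, 7.44% were lower than CCDC6 in vector cells and 8.82% in INAVA cells. The FPKM of RET was thus 16.5 times that of CCDC6 in vector cells and 15.7 times in INAVA cells. These are not ratios of molecules, because FPKM divides by the whole transcript. The usual fusion message holds 58.2% of the RET transcript but 9.21% of the CCDC6 transcript. The part of the fusion in these ratios was not tested. The log2 fold change of CCDC6 was 0.15. As log2 of the plain ratio, without 0.5 added to each value, it was 0.28, a difference of 0.115 FPKM between the groups.

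NCOA4, a ferritin receptor in autophagy and the other common RET partner, was at 110.4 FPKM in vector cells and 111.0 FPKM in INAVA cells. Its log2 fold change was 0.0081 (-0.038 under quantile normalization), and 96.0% of the genes kept had a larger one. The level of NCOA4 was 207 times that of CCDC6 in vector cells and 172 times in INAVA cells. The partner genes thus stood at opposite ends of the range of levels. GENCODE lists 3 pseudogenes named for NCOA4 and 2 named for SHC1, and fragments from such copies can be shared with the parent gene.

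GDNF (chr5:37812677-37839680), the ligand, was at 0.282 FPKM in vector cells and 0.571 FPKM in INAVA cells. It was the lowest of the 9 genes in both groups, and its mean was under the 0.5 FPKM needed to be kept. The log2 fold change was 0.45, and the plain ratio of the values was 2.03.

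**Figure D1:**
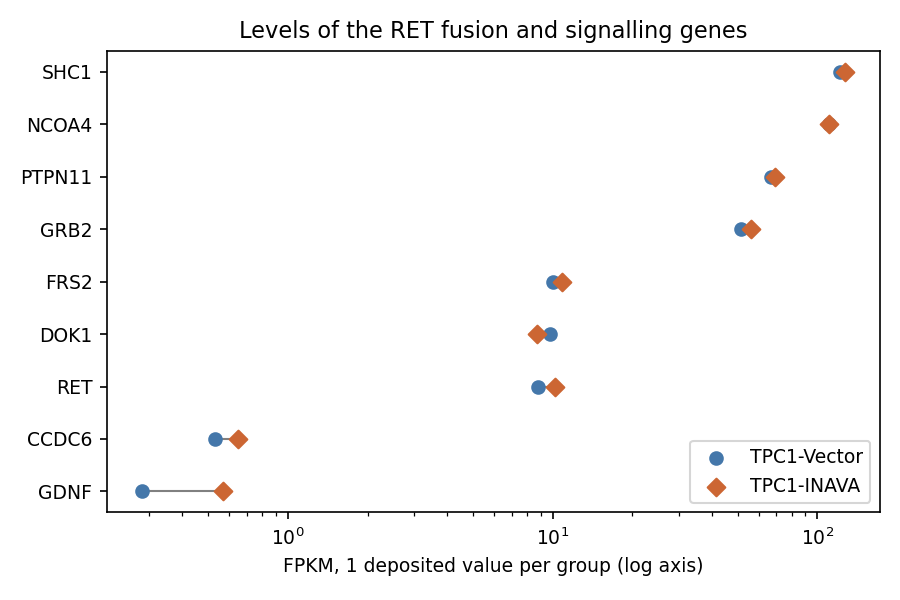
FPKM of the 9 genes in vector cells (TPC1-Vector, circles) and INAVA cells (TPC1-INAVA, diamonds) on a log axis, 1 deposited value per gene and group and hence no error bars. SHC1 is at the top with 122 and 127 FPKM and GDNF at the bottom with 0.282 and 0.571 FPKM, and the symbols of the genes above 50 FPKM overlap.

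Of the docking proteins, SHC1 (chr1:154962298-154974483), the adaptor that links the receptor to GRB2, had the highest level, with 122 FPKM in vector cells and 127 FPKM in INAVA cells. PTPN11 (chr12:112418732-112509913), the SHP2 phosphatase that acts on the RAS side of the pathway, was at 66.8 and 69.4 FPKM. GRB2 (chr17:75318076-75405709), which carries the exchange factor SOS, was at 51.2 and 55.9 FPKM. At least 87.4% of the listed genes were lower than each of these 3 in both groups.

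The docking proteins FRS2 and DOK1, which compete with SHC1 for the same tyrosine of RET, were lower. FRS2 (chr12:69470349-69579791) was at 10.0 FPKM in vector cells and 10.8 FPKM in INAVA cells. DOK1, which dampens the RAS signal, was at 9.77 FPKM in vector cells and 8.74 FPKM in INAVA cells, and SHC1 was 12.5 and 14.5 times as high as DOK1 in the respective groups. The log2 fold changes were 0.05 for SHC1, 0.05 for PTPN11, 0.13 for GRB2 and 0.11 for FRS2, against -0.15 for DOK1. DOK1 was the one member with a lower value in INAVA cells. The listed position of DOK1 (chr2:74526648-74557551) overlaps those of AUP1, HTRA2 and LOXL3. It is wider than the annotated gene (chr2:74549026-74557554), so the value of DOK1 may be split with those 3 genes. None of the other 8 members has a listed position that overlaps that of another gene.

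Of the 9 genes, 8 were kept and 0 of these 8 were past 1.5-fold, against a background of 3.7% of the 12305 genes kept (2.24% higher and 1.45% lower in INAVA cells). At the looser threshold, a value at least 25% above the other, the count was also 0 of 8, against 14.4% of the genes kept (7.69% higher and 6.74% lower). At 2-fold it was 0 of 8, against 0.853% of the genes kept (0.61% higher and 0.244% lower). The median log2 fold change of the 8 was 0.082, beside 0.0033 over all genes kept, and 7 of the 8 were higher in INAVA cells, beside 6256 of 12305. The order of the 9 levels was the same in both groups from SHC1 through NCOA4, PTPN11, GRB2 and FRS2. DOK1 stood above RET in vector cells and below it in INAVA cells, and CCDC6 and GDNF came last in both. With 1 value per group, no order between genes as close as RET, DOK1 and FRS2 can be set against a spread.

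**Figure D2:**
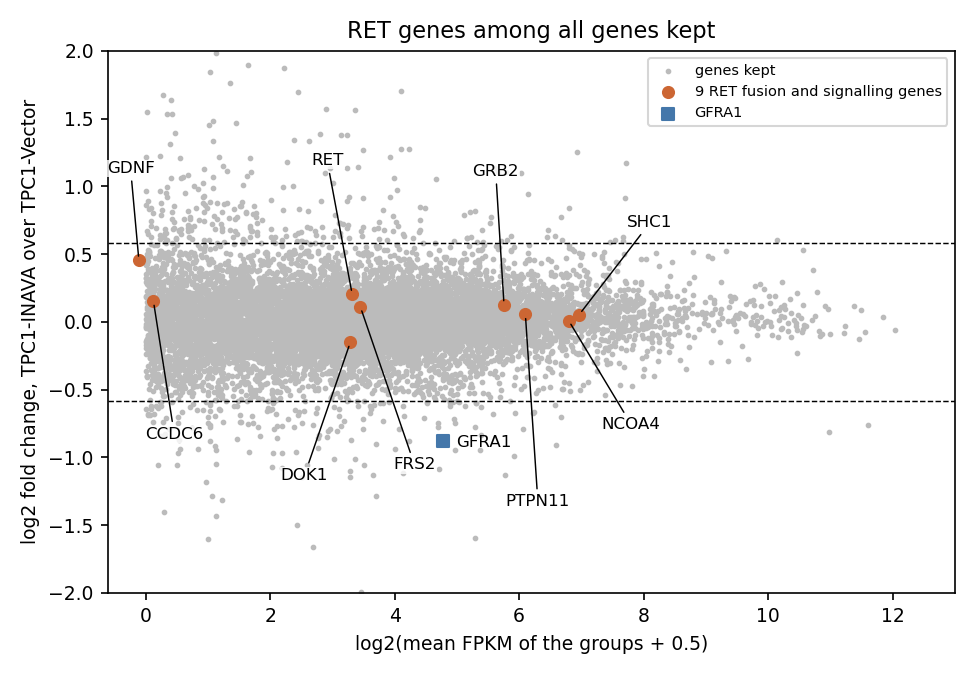
Log2 fold change (TPC1-INAVA over TPC1-Vector) against log2 of the mean FPKM plus 0.5 for the 12305 genes kept (grey), with the 9 RET fusion and signalling genes and the co-receptor gene GFRA1 marked. Dashed lines mark 1.5-fold, 15 genes lie outside the plotted range, and the 9 genes lie between the dashed lines while GFRA1 lies below the lower one.

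The genes whose pair of values was nearest to that of RET, by the Euclidean distance of log2(FPKM + 0.5) over the 2 group values, were TSKU (8.82 and 10.2 FPKM) and RIPK4 (8.81 and 10.1 FPKM). The distances were 0.0072 and 0.012. With 2 values per gene, this says that the levels were alike and no more.

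Upstream of RET, the co-receptor gene GFRA1, which presents GDNF to RET, had the largest log2 fold change of the pathway genes kept. GFRA1 (chr10:116056931-116273614) was at 35.1 FPKM in vector cells and 18.8 FPKM in INAVA cells, a ratio of 0.536 and a log2 fold change of -0.88. It was the only one of the 80 pathway genes kept that was past 1.5-fold, and 1.45% of all genes kept were past it in that direction. In its own stretch of chromosome 10, from CCDC6 to the end of the long arm, the share among genes averaging 1 FPKM or more was 9.90% (31 of 313). The other co-receptors GFRA2, GFRA3, GFRA4 and GFRAL were not listed. Of the ligands, NRTN, ARTN and PSPN were not listed either, and GDF15, a stress-induced ligand that acts through GFRAL, was at 42.9 FPKM in vector cells and 36.7 FPKM in INAVA cells (log2 fold change -0.22). A missing entry gives no level, and every listed gene reached at least 0.278 FPKM in 1 of the groups.

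The chromosomal surroundings of the 3 fusion genes were compared by position, using genes whose group values averaged 1 FPKM or more. From the end of the short arm up to RET, 104 genes had a median log2 fold change of -0.0099 (quartiles -0.084 and 0.12). Between RET and CCDC6, 35 genes had a median of 0.032 (quartiles -0.15 and 0.12). From CCDC6 to the end of the long arm, 313 genes had a median of -0.33 (quartiles -0.46 and -0.20), with lower values in INAVA cells for 296. Over all 11422 such genes the median was 0.0027. RET and NCOA4 thus lay among genes without a joint shift, whereas the interval beyond CCDC6 was shifted downward.

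CCDC6 was higher in INAVA cells, whereas the nearest gene averaging 1 FPKM or more on each side was lower. Neither is adjacent to CCDC6. Toward RET it was BICC1, an RNA-binding protein gene 957311 bases away. BICC1 was at 43.5 FPKM in vector cells and 31.0 FPKM in INAVA cells (log2 fold change -0.48). Beyond CCDC6 it was CDK1, the mitotic kinase, 871675 bases away, at 139.9 and 124 FPKM (-0.17). These were the 2 genes within 1 Mb of CCDC6, and the log2 fold change of CCDC6, 0.15, was 0.48 above their median. Looked up after the values were seen, the 5 genes next to CCDC6 on the RET side (IPMK, CISD1, UBE2D1, TFAM and BICC1) were all lower in INAVA cells, from -0.20 to -0.48, whereas the next 3 genes beyond CDK1 (ARID5B, RTKN2 and ZNF365) were higher, at 0.12, 0.06 and 0.03. The other 30 genes between RET and CCDC6 had a median of 0.057, with 9 lower. CCDC6 averaged just above the 0.5 FPKM needed to be kept, and how many fragments its value rests on is unknown.

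**Figure D3:**
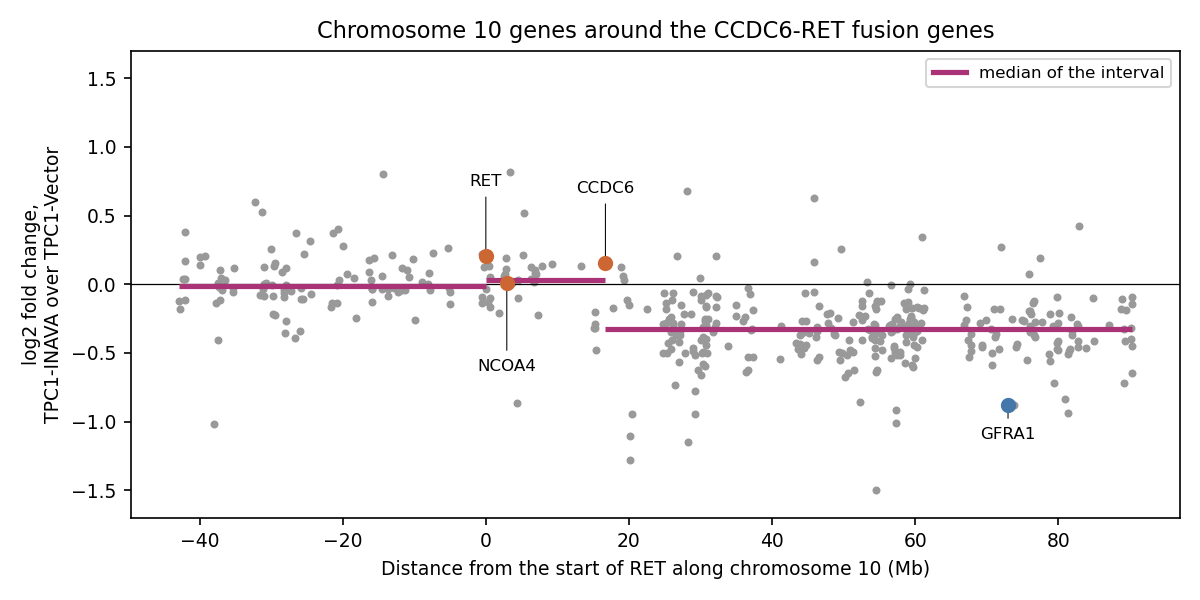
Log2 fold change (TPC1-INAVA over TPC1-Vector) of chromosome 10 genes averaging 1 FPKM or more, with CCDC6 added, against distance in Mb from the start of RET. Horizontal bars are the medians of the 3 intervals, -0.0099, 0.032 and -0.33, and GFRA1 lies in the shifted interval on the right.

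Around RET, the nearest genes were BMS1 (19.2 FPKM in vector cells and 21.0 FPKM in INAVA cells) and CSGALNACT2 (17.4 and 17.0 FPKM). The 10 genes within 1 Mb of RET had a median log2 fold change of -0.064, from which RET differed by 0.27. Around NCOA4, TIMM23 (118 and 117 FPKM) and the pseudogene HNRNPA1P33 (0.654 and 1.53 FPKM) were nearest, and the 8 genes within 1 Mb had a median of 0.069. The neighbours of SHC1, GRB2, FRS2, DOK1, PTPN11 and GDNF had medians between -0.017 and 0.082. CCDC6 was thus the one member whose neighbours were shifted by 0.2 or more.

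GFRA1 lies in the shifted interval, 73.0 Mb from RET. Its 4 neighbours within 1 Mb had a median log2 fold change of -0.35, and GFRA1 was 0.53 below that median. The neighbours ranged from 0.27 for ATRNL1 to -0.88 for SHTN1, which was as low as GFRA1 on this scale. RUFY2, a further RET partner gene in that interval, was at 10.4 and 8.43 FPKM (-0.28), with 16 of 16 neighbours lower. The part of this shared shift in the values of GFRA1 and RUFY2 was not tested.

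Across the pathway, 82 of the 98 genes looked up were listed and 80 were kept, among them the 8 members. Their median log2 fold change was -0.020, with 37 higher and 43 lower, beside 0.0033 over all genes kept. At the looser threshold (25%) 3 were higher and 5 lower, 10.0% of the 80, beside a background of 14.4%. Among them, named here after their values were seen, were GFRA1, PIK3CA and TBL1XR1 on the lower side and PTPN1, MAP2K1 and PLCG1 on the higher side. Of the 10 pathway genes whose neighbours within 1 Mb had a median log2 fold change of at least 0.2 in size, 5 were past the looser threshold, all 5 in the direction of their neighbours (GFRA1, PIK3CA, PLCG1 and PTPN1 among them). Of the 64 with less shifted neighbours 1 was past it, MAP2K1, and the other 6 had no neighbour value.

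Among the docking proteins, 23 of 30 were kept, 14 higher and 9 lower, and 0 were past 1.5-fold. PLCG1, the phospholipase that RET activates directly, was at 22.7 FPKM in vector cells and 29.3 FPKM in INAVA cells (log2 fold change 0.36), beside a median of 0.33 over its 4 neighbours on chromosome 20. STAT3, a transcription factor that RET can phosphorylate, was at 28.9 and 35.8 FPKM (0.31), with a neighbour median of 0.0079. IRS2, an insulin receptor substrate, was at 7.21 and 5.79 FPKM (-0.30). The scaffolds GAB1 and GAB2 were both under 1 FPKM in both groups.

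Among genes that end or oppose RET signalling, 9 of 11 were kept, 3 higher and 6 lower, and 0 were past 1.5-fold. CBL, the ubiquitin ligase that targets RET for degradation, was at 11.2 FPKM in vector cells and 9.91 FPKM in INAVA cells (log2 fold change -0.16). PTPN1, a tyrosine phosphatase, was at 32.5 and 44.4 FPKM (0.44), on chromosome 20 with a neighbour median of 0.29.

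In the RAS-ERK cascade all 15 genes were kept, 5 higher and 10 lower, and 0 were past 1.5-fold, with a median log2 fold change of -0.036. MAP2K1, which encodes the kinase MEK1, was at 21.2 FPKM in vector cells and 27.4 FPKM in INAVA cells (0.36), while 14 of its 17 neighbours were lower. In the PI3K-AKT cascade all 12 genes were kept, 6 higher and 6 lower, and 0 were past 1.5-fold, with a median of 0.0038. PIK3CA, the catalytic subunit of PI3K, was at 10.2 and 7.67 FPKM (-0.39), on chromosome 3 with a neighbour median of -0.38. AKT1, a kinase downstream of PI3K, was at 83.7 and 86.4 FPKM (0.05).

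The genes known as RET fusion partners in cancer, CCDC6 and NCOA4 included, were nearly all expressed, with 19 of 20 kept. Their median log2 fold change was -0.0090, 9 were higher and 10 lower, and 0 were past 1.5-fold. CCDC6 had the lowest level of the 19 in vector cells, and NCOA4 the highest. KTN1 (106.1 and 96.3 FPKM), PRKAR1A (94.7 and 106.2 FPKM) and KIF5B (75.8 and 81.4 FPKM) followed NCOA4 in vector cells. TBL1XR1 (44.9 and 31.1 FPKM, log2 fold change -0.52) came nearest to 1.5-fold. It lies on chromosome 3, as PIK3CA does, and no gene averaging 1 FPKM or more lay within 1 Mb to set it against. The nearest such genes went in opposite directions. They were NLGN1 (log2 fold change -0.69), 2737405 bases away, and ZMAT3 (0.47), 1819965 bases away on the side of PIK3CA.

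**Figure D4:**
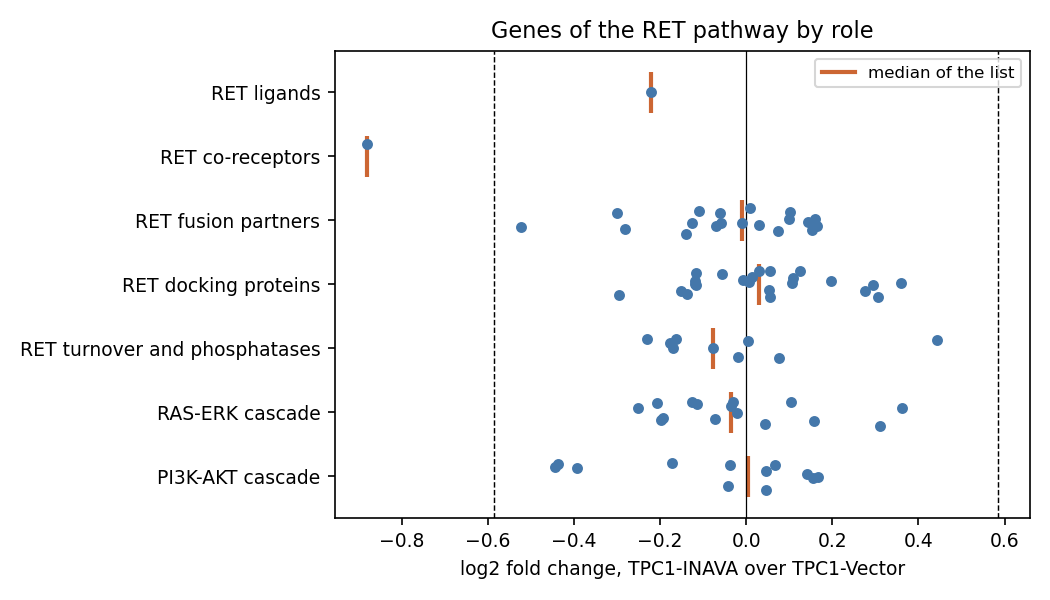
Log2 fold change (TPC1-INAVA over TPC1-Vector) of the pathway genes kept, 1 point per gene, by role, with the median of each list as a vertical bar and 1.5-fold as dashed lines (points are spread vertically only to separate them). GFRA1, the one co-receptor kept, lies outside the dashed lines, and all other points lie inside.

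For the series as a whole, INAVA was at 7.96 FPKM in vector cells and 123 FPKM in INAVA cells, a ratio of 15.4. Of 10 thyroid follicular markers, PAX8 (60.1 and 55.7 FPKM) and FOXE1 (5.26 and 5.89 FPKM) were listed, while TG, TSHR, NKX2-1 and others were not. None of 5 C cell markers (CALCA, CALCB, CHGA and CEACAM5 among them) and none of 3 endothelial markers was listed. Of 4 leukocyte markers 2 were listed, with a summed level of 6.06 FPKM in vector cells and 8.91 FPKM in INAVA cells, mostly CD68, and PTPRC was not. Of 4 fibroblast markers 2 were listed, with summed levels of 3.18 and 1.96 FPKM. Of 5 epithelial markers KRT8 (23.4 and 10.5 FPKM) and KRT18 (140.3 and 212 FPKM) were listed, under a joint position. The part of these markers in the values of the RET pathway was not tested.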

How the data were processed

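Total RNA of 4 TPC1 samples, 2 labelled TPC1-Vector and 2 labelled TPC1-C1orf106 (here TPC1-INAVA), was sequenced as mRNA libraries. The submitters' processing notes name CASAVA, Cufflinks 2.1.1, Cuffdiff and the build hg38. The aligner and the annotation are not given in the sources used here. The authors deposited 1 FPKM value per gene and group, with the libraries of a group combined. The deposited table also holds a log2 ratio with its p-value and q-value from the authors' own comparison, which were not used. Depth per library is unknown.

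Log2 fold changes are differences of log2(FPKM + 0.5). Genes averaging 0.5 FPKM or more were kept (12305 of 13165), or 1 FPKM for comparisons by position. With 1 value per group no test was run, and 1.5-fold was used as threshold. Table positions count from 0 and were moved to count from 1. Exons and junction bases came from GENCODE release 29 (GRCh38), promoters from RefSeq (GRCh38.p14). Named were the 9 members, pathway genes past 1.5-fold and up to 6 others per list by level, nearest neighbours of RET, CCDC6 and NCOA4, INAVA, and the genes nearest to RET in level. Some genes are not reported here, and genes named outside it were picked with their values in view. The members and lists were chosen with earlier results of these data known. Python 3.11.15, numpy 2.4.6, pandas 2.3.3 and matplotlib 3.10.9 were used. Alternatives were other pseudocounts, filters, folds and scalings.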

Additional observations from a re-analysis of the deposited data

How the results depend on the processing

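No paired analysis was possible because each group comes with a single FPKM value, and leaving out each replicate was not run for the same reason. A move under 0.1 on the log2 scale was counted as the same value, since no spread between replicates exists. Counts of genes had another limit. They were taken as the same if equal or, where neither was 0, if the larger was at most 1.5 times the smaller. RET ranged from 0.19 to 0.21 over pseudocounts and scalings, GFRA1 from -0.90 to -0.86, and the median beyond CCDC6 from -0.35 to -0.31, while 0 of the 8 members kept were past 1.5-fold under each pseudocount and scaling, and 0 past the 25% threshold. Without the filter 0 of 9 were past 1.5-fold at a pseudocount of 0.5, but the filter removes GDNF, whose values at a pseudocount of 0.1 or none are past it. NCOA4 changed sign, from 0.0081 to -0.038, under quantile normalization. GDNF, at 0.45, moved to 0.81 with a pseudocount of 0.1, 0.29 with 1 and 1.02 with none, and CCDC6, at 0.15, to 0.28 with none, since the pseudocount itself shrinks the change of weak genes. Without a filter the median of the listed RET ligands moved from -0.22 to 0.12, as GDNF joined GDF15. At the 25% threshold the pathway genes past the threshold went from 1 to 8, by construction, with 1 each among fusion partners, docking proteins, turnover genes and the RAS-ERK cascade and 3 in the PI3K-AKT cascade, and at 2-fold 0 were left, GFRA1 included. Without the genes whose neighbours shifted by at least 0.2, an alternative added after the data were seen, the 8 became 3. In all, 202 of the values recomputed stayed within these limits and 14 moved. Depth limits the weakly expressed CCDC6 and GDNF most, by an amount that FPKM does not reveal.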

Other observations

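Of the pathway genes listed, 5 had a position on an alternate scaffold of the genome build rather than on a chromosome. Among them were TRIM27, a RET partner (32.3 FPKM in vector cells and 36.2 FPKM in INAVA cells), DLG5, another partner (16.4 and 13.2 FPKM), the adaptor CRK (63.1 and 62.8 FPKM) and HRAS (45.0 and 46.5 FPKM). An alternate scaffold repeats a stretch of a chromosome, and whether fragments of these genes were divided between both copies was not tested.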
